A study of Mus musculus with 6 samples.

Results

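Expression of 10 regulators of the luminal lineage of the mammary gland was examined in mouse breast tumors: the hormone receptor genes *Esr1*, *Pgr* and *Prlr* and the transcription factor genes *Gata3*, *Foxa1*, *Elf5*, *Ehf*, *Elf3*, *Tfap2c* and *Spdef*. They were chosen by name as known luminal regulators, with no threshold on their measured values but with earlier results of these data known. All 10 were found among the 18460 genes listed in at least 1 tumor. RNA sequencing covered 3 test tumors from K14-TSLPtg;PyMTtg;Rag1KO mice and 3 control tumors from PyMTtg;Rag1KO mice, all on the Balb/c strain. Every mouse carried the MMTV-PyMT oncogene, lacked its own T and B cells through loss of Rag1, and had received, when 4 weeks old, sorted CD4+ T cells of wild-type mice. The groups differed by the K14-TSLP transgene, which drives the cytokine TSLP from a promoter of keratinocytes. Tumors were taken at the endpoint, in weeks 18 to 20, and each came from a separate mouse. Whole tumors were sequenced, so fewer cells of a type and less RNA per cell cannot be told apart. The question of the comparison was how the tumor transcriptome differs when the transferred CD4+ T cells meet TSLP.

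The depth of the tumors ran from 8373390 to 9449565 expected counts, and levels are given as CPM, the counts divided by library sizes that edgeR's TMM method had scaled. Values of 3 counts or fewer were treated as at the limit of this depth, which covers counting error only. *Tslp* had 12, 7 and 2 counts in test replicates 1, 2 and 3 and 2, 2 and 3 in the control tumors, and *Rag1* had from 4 to 27 counts in the 6 tumors, so neither gene separated the groups, and the part of *Rag1* in which its reads lay was not given. The 8 epithelial markers on the list used, among them *Epcam*, *Krt8* and *Krt18*, were detected in every tumor. Their summed level was 5474 to 5835 CPM in the test tumors, 2218 and 1925 CPM in control replicates 1 and 3, and 4257 CPM in control replicate 2. Over the 10 regulators control replicate 2 was nearer to some test tumors than to the other control tumors. Its root mean square difference in log2 CPM was 0.46 from test replicate 3 and 0.91 from test replicate 2, against 1.19 from control replicate 3, 1.83 from control replicate 1 and 1.97 from test replicate 1. The tumor nearest to test replicate 1 was test replicate 2, at 1.61. Results are therefore given with and without control replicate 2, and test replicate 1 is named where it sets a value.

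The luminal layer of the mammary gland holds hormone-sensing cells and secretory alveolar cells together with their progenitors. Hormone-sensing cells carry the estrogen receptor (*Esr1*), the progesterone receptor (*Pgr*) and the forkhead factor *Foxa1*, which opens chromatin for the estrogen receptor. *Gata3* is needed to form and keep luminal cells. *Elf5* drives the alveolar fate downstream of the prolactin receptor (*Prlr*), which signals through JAK2 and STAT5. *Elf5*, *Ehf* and *Elf3* are epithelium-specific members of the ETS family, *Spdef* is another epithelial ETS factor, and *Tfap2c* encodes AP-2gamma, a regulator of luminal genes including the estrogen receptor.

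Promoter sequences of GRCm38.p6, the mouse assembly that mm10 corresponds to, were available from RefSeq for 8 of the 10 genes, and *Ehf* and *Tfap2c* had no entry in the table used. The 250 bases before a RefSeq transcript start are shown for *Elf5* and *Elf3*, whose levels followed each other most closely, and for *Gata3* and *Foxa1*, the steadiest and the most variable of the 10 genes. The *Elf5* sequence is chr2:103411848-103412097 on the plus strand and the *Elf3* sequence chr1:135258473-135258722 on the minus strand. In both, capitals mark the ETS core GGAA or its reverse complement TTCC, with 2 matches for *Elf5* and 4 for *Elf3*. The *Gata3* sequence is chr2:9878601-9878850 on the minus strand, and its capitals mark 3 matches to the AP-2 pattern GCCNNNGGC. The *Foxa1* sequence is chr12:57546112-57546361 on the minus strand, and its capitals mark 1 match to the forkhead pattern TGTTTAC, read on the opposite strand. The ETS core occurs in these last sequences too, with 2 matches for *Gata3* and 4 for *Foxa1*, and is not in capitals there.
Elf5: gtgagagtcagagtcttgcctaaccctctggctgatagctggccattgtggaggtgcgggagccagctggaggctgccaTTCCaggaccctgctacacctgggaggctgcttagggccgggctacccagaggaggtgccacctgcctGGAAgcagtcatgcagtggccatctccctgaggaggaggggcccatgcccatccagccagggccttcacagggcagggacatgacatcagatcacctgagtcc
Elf3: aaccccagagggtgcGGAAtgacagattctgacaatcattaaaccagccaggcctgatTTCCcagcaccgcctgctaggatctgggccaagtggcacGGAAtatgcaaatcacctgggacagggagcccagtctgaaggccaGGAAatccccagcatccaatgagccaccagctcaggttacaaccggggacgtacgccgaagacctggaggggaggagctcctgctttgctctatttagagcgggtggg
Gata3: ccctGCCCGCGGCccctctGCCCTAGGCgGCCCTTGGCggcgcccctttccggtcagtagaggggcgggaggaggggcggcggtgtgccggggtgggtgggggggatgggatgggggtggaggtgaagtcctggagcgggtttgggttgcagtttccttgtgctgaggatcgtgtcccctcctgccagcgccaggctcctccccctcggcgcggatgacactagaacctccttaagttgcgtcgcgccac
Foxa1: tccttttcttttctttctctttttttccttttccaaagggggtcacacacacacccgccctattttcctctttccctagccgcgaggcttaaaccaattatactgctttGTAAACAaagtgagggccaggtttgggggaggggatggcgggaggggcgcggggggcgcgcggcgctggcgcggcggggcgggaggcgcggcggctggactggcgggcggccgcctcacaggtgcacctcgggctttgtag
Over all 32851 promoter sequences of this length in the same table, read on both strands, 93.4% held the ETS core, 13.7% the AP-2 pattern and 3.17% the forkhead pattern. The ETS core is thus present in nearly every promoter and marks nothing particular to *Elf5* and *Elf3*. The other patterns searched were the GATA pattern AGATAA (9.99% of promoters), the STAT5 pattern TTCNNNGAA (7.02%), the steroid receptor half-site AGAACA (16.1%) and the estrogen receptor half-site AGGTCA (14.02%), none of which matched in these 4 windows. A match is a run of letters and does not show binding.

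The epithelium-specific ETS factors *Elf5*, *Ehf* and *Elf3* were abundant to moderate in all 6 tumors, and their lowest levels were in control replicates 1 and 3. *Elf5*, the alveolar fate factor, was at 599, 659 and 335 CPM in test replicates 1, 2 and 3 and at 159.7, 517 and 282 CPM in control replicates 1, 2 and 3. Test replicate 3 and control replicate 2 made the groups overlap, and 8 of the 9 pairs of a test with a control tumor had the higher level in the test tumor. Group means (± SD, n = 3) were 531 ± 173 CPM for test and 319.6 ± 182 CPM for control tumors. In edgeR's quasi-likelihood test over all genes *Elf5* had a log2 fold change of test over control tumors of 0.73, with standard error 0.47 and adjusted p = 0.714.
*Ehf*, a factor of secretory and barrier epithelia, was at 824, 675 and 917 CPM in the test tumors and at 199.5, 974 and 264 CPM in the control tumors. Control replicate 2 thus had the highest level of the 6 tumors, and the other control tumors lay below every test tumor. Means of 805 ± 122 and 479 ± 429.7 CPM gave *Ehf* a log2 fold change of 0.75, with adjusted p = 0.767 and standard error 0.59 in the edgeR fit. *Elf3*, which is induced in epithelia during differentiation and inflammation, was lower in level, with its control tumors in the same order as for *Ehf*. It was at 37.2, 31.6 and 27.0 CPM in the test tumors and at 14.003, 42.1 and 19.1 CPM in the control tumors, with control replicate 2 again the highest. Its log2 fold change was 0.35 (standard error 0.43, adjusted p = 0.836 in the same edgeR fit).
*Elf5* and *Ehf* are neighbors on chromosome 2, where *Ehf* (103263431 to 103303275, minus strand) and *Elf5* (103412098 to 103450989, plus strand) are 108822 bases apart and point away from each other, with no other protein-coding gene between them in RefSeq. *Elf3* lies on chromosome 1 (135253574 to 135258472, minus strand). Of the 45 pairs among the 10 regulators, *Elf5* with *Elf3* had the smallest root mean square difference of log2 levels centered on the 6 tumors, at 0.30, while *Ehf* with *Elf3* stood at 0.45 and *Elf5* with *Ehf* at 0.53. The summed level of the epithelial markers was also lowest in control replicates 1 and 3, but the other tumors did not share an order. Test replicate 3 had the highest epithelial sum, 5835 CPM, and the lowest *Elf5* and *Elf3* of the test tumors. The part of epithelial content in the levels of these factors was not tested, beyond a covariate whose values are given further on.

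**Figure D1:**
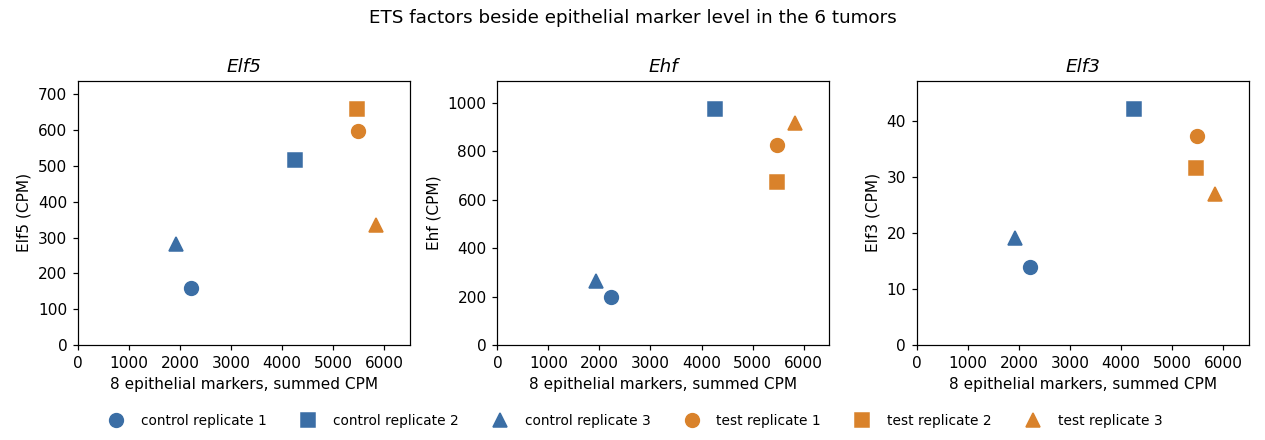
*Elf5*, *Ehf* and *Elf3* (CPM, vertical axes) against the summed CPM of 8 epithelial markers (horizontal axis), with 1 point for each of the 6 tumors. Control replicates 1 and 3, at 2218 and 1925 CPM of epithelial markers, have the lowest level of all 3 factors, while control replicate 2, at 4257 CPM, has the highest level of *Ehf* and *Elf3*.

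*Spdef*, a factor of goblet and luminal secretory cells, differed most in size. It was at 46.4, 11.0 and 7.22 CPM in test replicates 1, 2 and 3 and at 1.74, 9.73 and 1.92 CPM in control replicates 1, 2 and 3. Test replicate 1 held 71.8% of the test CPM, and control replicate 2 lay above test replicate 3, so that the groups overlapped. The fit gave *Spdef* a log2 fold change of 2.26 (95% interval 0.10 to 4.42, standard error 0.93), with an unadjusted p of 0.0421 and an adjusted p of 0.562 in edgeR's test. DESeq2 gave an adjusted p of 0.174. Without test replicate 1 the log2 fold change of *Spdef* was 1.02, and without control replicate 2 it was 3.55.
The tested genes whose centered levels lay nearest to those of *Spdef* were *Ryr1*, *Pygm* and *Des*, at root mean square differences of 0.30, 0.47 and 0.49 log2 units over the 6 tumors, among tested genes with a mean of at least 10 CPM. All of them are genes of muscle: *Ryr1* encodes the calcium release channel, *Pygm* the glycogen phosphorylase and *Des* desmin. The 10 skeletal muscle markers summed to 991, 190.1 and 106.0 CPM in test replicates 1, 2 and 3 and to 7.87, 191 and 5.97 CPM in control replicates 1, 2 and 3, with *Ckm* at 0 counts in control replicate 1. The part of muscle tissue in the *Spdef* values was not tested.

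The steroid hormone receptors and *Foxa1* had the lowest mean FPKM of the 10 regulators, and their highest level was in test replicate 1. *Esr1* (chromosome 10, 4611989 to 5005633, plus strand) was at 9.69, 0.73 and 2.55 CPM in test replicates 1, 2 and 3 and at 6.94, 2.81 and 7.56 CPM in control replicates 1, 2 and 3, from 84, 6, 24, 60, 26 and 71 counts. The groups overlapped in full, since the test tumors held both the highest and the lowest level. For *Esr1* the log2 fold change was -0.42 (95% interval -2.42 to 1.59, adjusted p = 0.908 in edgeR's test). Without test replicate 2 it was 0.08, so its direction rested on that tumor.
*Pgr* (chromosome 9, 8898900 to 8968611, plus strand), a classic target of the estrogen receptor, had 73, 16 and 3 counts in the test tumors and 37, 10 and 5 in the control tumors. In CPM these were 8.42, 1.95 and 0.32 against 4.28, 1.08 and 0.53, so that test replicate 3 was at the limit of 3 counts and replicate 1 was the highest tumor of each group. For *Pgr* the log2 fold change was 0.86 (95% interval -1.81 to 3.52, adjusted p = 0.850 in edgeR's test), and without test replicate 1 it was -0.79.
*Foxa1* (chromosome 12, 57540628 to 57548029, minus strand) had 187, 23 and 2 counts in the test tumors and 59, 2 and 10 in the control tumors. Its levels were 21.6, 2.81 and 0.21 CPM against 6.83, 0.22 and 1.07 CPM, and test replicate 3 and control replicate 2 were under 3 counts. Replicate 1 was again the highest tumor of each group, and test replicate 1 held 87.7% of the test CPM. Its log2 fold change in the fit was 1.60 (95% interval -1.89 to 5.09, adjusted p = 0.796 in edgeR's test), and without test replicate 1 it was -0.84. *Pgr* and *Foxa1* had a root mean square difference of 0.77 and thus lay nearer to each other than either did to *Esr1*, at 1.25 for *Pgr* and 1.595 for *Foxa1*. *Esr1* was high in control replicate 3, where the other genes of this trio were low.
The genes nearest to *Foxa1* over the 6 tumors were *Lpl* and *Fabp4*, lipid-handling genes of adipocytes and other cells, and *Dcn*, a matrix gene of fibroblasts, at differences of 0.78, 0.85 and 0.96. The adipocyte markers, of which 2 of 6 passed the filter on low counts, summed to 244, 59.7 and 2.02 CPM in test replicates 1, 2 and 3 and to 0.35, 7.14 and 3.73 CPM in control replicates 1, 2 and 3. Test replicate 1 was highest for them as well. *Lep* was at 0 counts in control replicate 1 and test replicates 2 and 3, *Plin1* in control replicate 1 and test replicate 3, and *Retn* in control replicate 1. The part of fat tissue in the levels of *Esr1*, *Pgr* and *Foxa1* was not tested.

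*Prlr* (GRCm38 chromosome 15, 10177238 to 10349190, plus strand), the receptor for the lactation hormone prolactin, was far more abundant than the steroid receptors on the scale per length, with a mean FPKM of 23.2 against 1.17 for *Esr1* and 0.40 for *Pgr*. It was at 414, 202 and 205 CPM in test replicates 1, 2 and 3 and at 129, 236 and 183 CPM in control replicates 1, 2 and 3. Test replicate 1 stood above the other tumors, which ran from 129 to 236 CPM without separating the groups. The fitted log2 fold change was 0.58 (standard error 0.38, 95% interval -0.30 to 1.47, adjusted p = 0.716 in edgeR's test), and without test replicate 1 it was 0.16. Its 3 transcripts were counted together, so none could be followed on its own.
The signaling genes of the prolactin pathway, listed together with the growth hormone receptor gene *Ghr*, showed no shared direction. Of 12 genes on a list of the pathway all 12 were tested, and 0 had an adjusted p of 0.05 or less. In edgeR's test 0 had an unadjusted p under 0.05, beside 8.41% of all tested genes. The log2 fold change was above 0 for 5, beside 51.5% of all tested genes. Their median log2 fold change was -0.03, beside 0.02 for all tested genes. *Stat5a* was at 72.9, 45.8 and 47.3 CPM in the test tumors and 53.9, 76.1 and 35.4 CPM in the control tumors, and its groups overlapped in full. *Socs1* and *Ghr*, a feedback inhibitor and the growth hormone receptor, had the largest log2 fold changes of the list at -1.48 and -0.78 (adjusted p = 0.670 and 0.656 in edgeR's test).

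*Gata3* (chromosome 2, 9857078 to 9887953, minus strand) was the steadiest of the 10 regulators. Its level was 232, 313 and 251 CPM in test replicates 1, 2 and 3 and 238, 235 and 259 CPM in control replicates 1, 2 and 3, a ratio of 1.35 between the highest and the lowest tumor. The standard deviation of its log2 level over the 6 tumors was 0.16, above that of 3.85% of the tested genes. The log2 fold change was 0.12 (95% interval -0.44 to 0.68, adjusted p = 0.906 in edgeR's test), an interval narrower than that of any of the other 9 genes.
GATA3 also directs T helper 2 cells, which naive CD4+ T cells such as those transferred can become. The 8 T cell markers together summed to 5.65 to 10.1 CPM in the test tumors and 5.95 to 8.31 CPM in the control tumors, and 3 of them passed the filter on low counts. *Cd5* was at 0 counts in control replicate 1 and test replicate 2, *Cd2* in control replicate 2 and *Cd3g* in control replicate 3. *Cd4* ran from 1.04 to 1.91 CPM in the test and from 1.73 to 3.73 CPM in the control tumors. The part of T cells in the *Gata3* levels was not tested.
*Tfap2c* (chromosome 2, 172545678 to 172558622, plus strand) and *Esr1* were the regulators with a log2 fold change below 0. *Tfap2c* was at 158, 168 and 194 CPM in the test tumors and at 390.4, 139.6 and 252 CPM in the control tumors. Control replicate 2 had the lowest level of all and the other control tumors the highest, an order opposite to that of *Ehf* and *Elf3*. In the fit *Tfap2c* stood at a log2 fold change of -0.59 (SE 0.38, 95% interval -1.47 to 0.29, adjusted p = 0.713 in edgeR's test), and without control replicate 1 it was -0.18. Its relative *Tfap2a* was at 132, 114 and 144 CPM in the test tumors and 108, 136 and 111 CPM in the control tumors, with a log2 fold change of 0.14. *Tfap2b* was at 211, 127 and 197 CPM in the test tumors and at 176.6, 140.1 and 0.85 CPM in the control tumors, so that control replicate 3 stood alone in nearly lacking it.

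**Figure D2:**
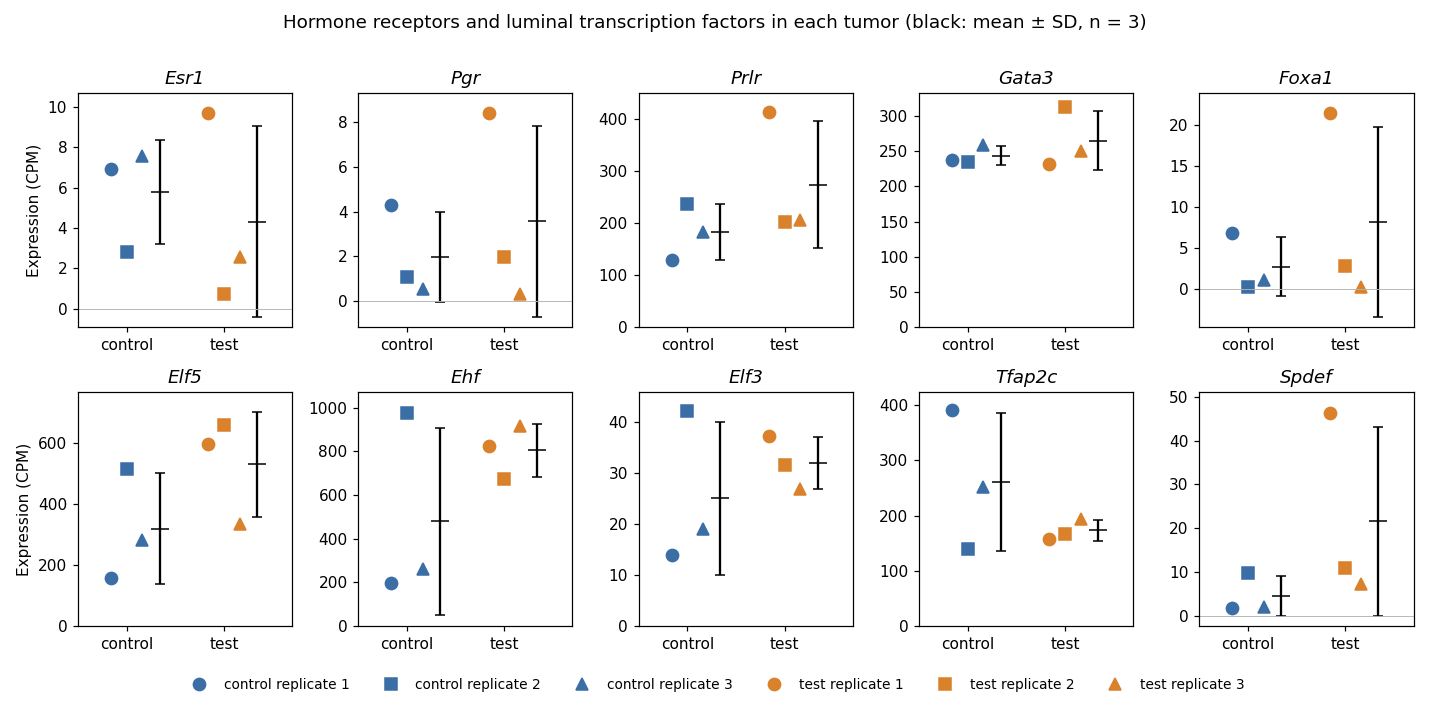
Expression in CPM (vertical axes, a separate scale for each gene) of the 10 luminal regulators in 3 control and 3 test tumors, with the mean and SD of each group in black. The groups overlap for every gene, test replicate 1 is the highest tumor for *Esr1*, *Pgr*, *Prlr*, *Foxa1* and *Spdef*, and control replicate 2 is the highest for *Ehf* and *Elf3*.

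The 10 regulators were then counted as a list. At an adjusted p of 0.05 edgeR's quasi-likelihood test called 0 of the 10, beside 0% of the 13706 tested genes, and DESeq2 and limma also called 0 of them, limma without *Pgr* after its filter. All 10 passed the filter on low counts. At an unadjusted p under 0.05 edgeR gave 1, *Spdef*, higher in test tumors, beside 8.41% of all tested genes, split into 3.15% higher and 5.26% lower. DESeq2 also had *Spdef* alone at an unadjusted p under 0.05, beside 10.1% of all genes, split into 3.86% higher and 6.27% lower, while at an adjusted p of 0.05 it called 313 genes of the whole table (2.29%). *Spdef* lost its unadjusted p under 0.05 without control replicate 1, control replicate 3 or test replicate 1. The log2 fold change was above 0 for 8 of the 10, beside 51.5% of all tested genes, and its median was 0.66, beside 0.02. The groups overlapped for all 10 genes, so the count without overlap was 0, beside 12% of all tested genes (6.12% higher and 5.86% lower). The exact permutation test over the 6 tumors, two-sided, gave p = 0.2 for *Elf5* and *Spdef* and from 0.4 to 0.8 for the other regulators, and it cannot go below 0.1 with 3 tumors against 3.
Single control tumors decided several of these values. Without control replicate 1 the log2 fold changes were 0.38 for *Ehf*, 0.41 for *Elf5*, 0.06 for *Elf3* and -0.18 for *Tfap2c*. Without control replicate 2, 5 of the 10 regulators had an unadjusted p under 0.05 in edgeR's test, namely *Ehf*, *Elf5*, *Elf3* and *Spdef* toward test tumors and *Tfap2c* toward control tumors, beside 13.8% of all tested genes (5.06% higher and 8.69% lower). None of the 10 reached an adjusted p of 0.05, although 150 genes of the whole table (1.09%) did. The lowest adjusted p among them was 0.0656 for *Ehf*, with a log2 fold change of 1.80 (standard error 0.34). The groups then did not overlap for 6 regulators, the same 5 genes and *Prlr*, of which 5 were higher and 1 was lower in test tumors, beside 35.1% of all tested genes without overlap (16.2% higher and 18.8% lower). *Gata3* stayed at 0.09 and *Esr1* at -0.74. Control replicate 2 was singled out by its levels of these same 10 regulators. Leaving it out therefore favors a difference between the groups in them, and the counts without it are not evidence of one.

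**Figure D3:**
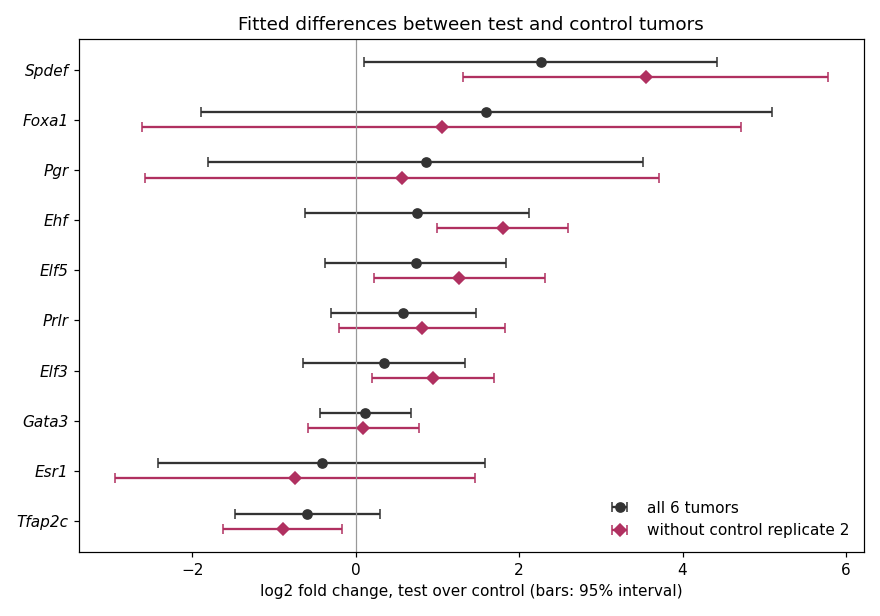
Log2 fold change of test over control tumors (horizontal axis) with its 95% interval from edgeR for the 10 luminal regulators, for all 6 tumors (black circles) and without control replicate 2 (red diamonds). With all tumors the interval of *Spdef* alone lies off 0, from 0.10 to 4.42, and without control replicate 2 those of *Ehf*, *Elf5*, *Elf3*, *Spdef* and *Tfap2c* do. Control replicate 2 was singled out by its levels of these same genes, so leaving it out favors a difference in them.

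The epithelial markers were higher on average in the test tumors, but none passed an adjusted p of 0.05 in edgeR's test. All 8 had a log2 fold change above 0, with a median of 0.89. Of the 8, 3 were higher at an unadjusted p under 0.05 in edgeR's test, beside 3.15% of all tested genes. The groups did not overlap for 4 of them, beside 6.12% of all tested genes without overlap and higher in test tumors. *Krt8*, *Krt18* and *Krt19*, keratins of luminal cells, had log2 fold changes of 1.22, 1.01 and 1.82 (adjusted p = 0.454, 0.569 and 0.394 in edgeR's test). When each regulator was set against the mean log2 level of the epithelial markers in its own tumor, the differences of test from control means were -0.98 for *Gata3*, -1.56 for *Tfap2c*, -1.88 for *Esr1*, 0.02 for *Ehf* and 0.99 for *Spdef* in log2 units. *Elf3* was then the 1 regulator whose groups did not overlap, lower in all test tumors by a difference of -0.60 (exact permutation test, two-sided, p = 0.1, the smallest possible), where 44.3% of all tested genes did not overlap on this scale and 44% were lower without overlap. With the epithelial level as a covariate in edgeR no regulator had an unadjusted p under 0.05, and the log2 fold changes were -1.06 for *Ehf*, -0.32 for *Elf5*, -0.86 for *Elf3*, 0.34 for *Spdef* and 6.75 for *Foxa1*.

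**Figure D4:**
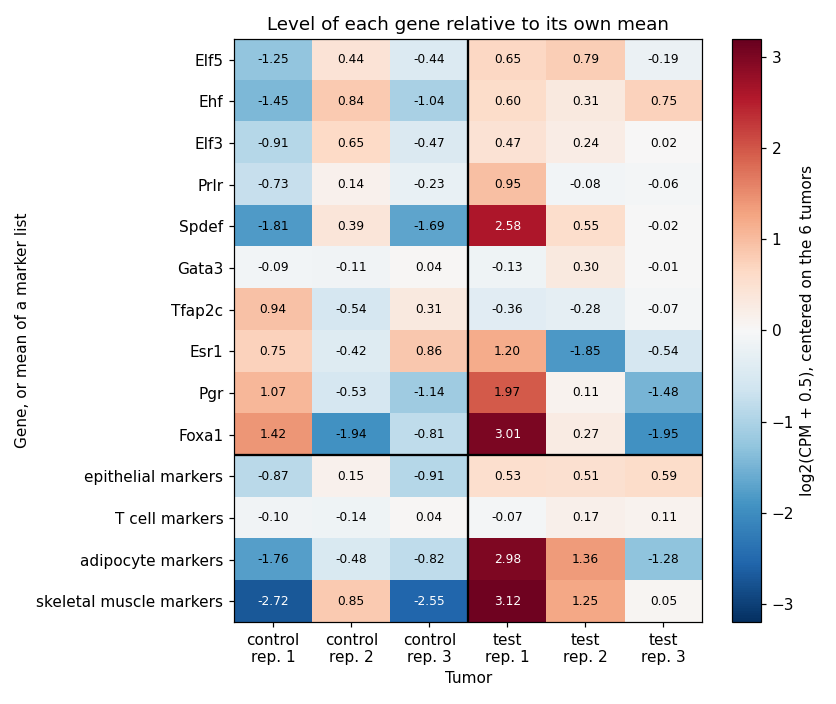
Level of each luminal regulator, and mean level of 4 marker lists, in the 6 tumors (columns) as log2(CPM + 0.5) centered on the mean of the 6 tumors (color and printed number). *Elf5*, *Ehf* and *Elf3* are below their mean in control replicates 1 and 3 like the epithelial markers, at -0.87 and -0.91, and *Foxa1* reaches 3.01 in test replicate 1, where the adipocyte and skeletal muscle markers are at 2.98 and 3.12.

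Other genes of the same cell states were counted from lists. Of 14 genes of luminal progenitors and alveolar cells all were tested, and 0 passed an adjusted p of 0.05 in edgeR's test. At an unadjusted p under 0.05 in that test 3 were higher and 1 was lower in test tumors. Beside these stand 3.15% higher and 5.26% lower of all tested genes. The median log2 fold change was 0.06, beside 0.02 for all tested genes. *Cd14*, a surface receptor of luminal progenitors, was at 196, 183 and 185 CPM in the test tumors and 57.6, 141 and 72.4 CPM in the control tumors, without overlap, and its log2 fold change was 1.06 (adjusted p = 0.483, standard error 0.36). *Csn3*, the casein that stabilizes milk micelles, was at 15725, 10504 and 15665 CPM in the test tumors and 6946, 2429 and 6358 CPM in the control tumors, also without overlap, and its log2 fold change was 1.41 (adjusted p = 0.491, standard error 0.50). *Wfdc18* followed at 1.15. *Lbp*, an acute-phase lipopolysaccharide-binding protein, was the gene under that p in the other direction, at -1.29. It was at 297, 291 and 132 CPM in the test tumors and 831, 367 and 566 CPM in the control tumors, also without overlap. The log2 fold change was above 0 for 8 of the 14 genes and below 0 for 6, with *Rspo1* at -1.30 (adjusted p = 0.718 in edgeR's test). Control replicate 2 had the lowest *Csn3* of all tumors, whereas it was the third highest tumor for *Elf5*, so that this milk gene and the alveolar factor did not share an order.
Of 12 genes of hormone-sensing luminal cells 10 were tested, and their median log2 fold change was -0.11, beside 0.02 for all tested genes. In edgeR's test 0 passed an adjusted p of 0.05 and 1 had an unadjusted p under 0.05, beside 8.41% of all tested genes. That gene was *Fgfr4*, at 0.69, 1.59 and 0.32 CPM in the test tumors and 21.2, 0.54 and 28.3 CPM in the control tumors, with control replicate 2 at the level of the test tumors (log2 fold change -4.26, adjusted p = 0.454). *Tbx3* had the next largest log2 fold change of the list, at 1.61 (standard error 0.74, adjusted p = 0.628 in edgeR's test). Its groups alone in this list did not overlap, with higher levels in the test tumors and test replicate 1 far above the others. Of the 10 tested genes, 4 had a log2 fold change above 0 and 6 below 0. *Greb1*, an estrogen-induced gene, had a log2 fold change of -1.04 (adjusted p = 0.755 in edgeR's test). *Areg*, the estrogen-induced ligand of the EGF receptor, had one of -0.20 (adjusted p = 0.961 in edgeR's test). *Tnfsf11*, which encodes the progesterone-induced ligand RANKL, and *Calca* did not pass the filter. *Tnfsf11* was at 18.7, 0.12 and 0.53 CPM in test replicates 1, 2 and 3 and at 6.25, 0.43 and 0.85 CPM in control replicates 1, 2 and 3, so that replicate 1 was the highest tumor of each group, as for *Pgr*.
Of 14 other transcription factors of luminal cells all were tested, with a median log2 fold change of -0.10, beside 0.02 for all tested genes. In edgeR's test 0 passed an adjusted p of 0.05 and 1 had an unadjusted p under 0.05, beside 8.41% of all tested genes. *Zfp703*, a luminal transcriptional repressor, was at 74.8, 52.6 and 66.5 CPM in the test tumors and 214, 116 and 153 CPM in the control tumors, without overlap (log2 fold change -1.32, standard error 0.30, adjusted p = 0.394). *Tbx2*, a T-box repressor, was at -1.64 with overlap. *Xbp1*, *Grhl1* and *Grhl2*, factors of secretory and epithelial identity, had log2 fold changes of 0.07, -0.01 and 0.0010.
Relatives of the regulators in their own gene families were counted as well. Of 21 relatives 14 were tested, with a median log2 fold change of -0.03, beside 0.02 for all tested genes. In edgeR's test 0 passed an adjusted p of 0.05 and 1 had an unadjusted p under 0.05, beside 8.41% of all tested genes. *Nr3c2*, the mineralocorticoid receptor, was at 6.46, 3.05 and 4.03 CPM in the test tumors and 18.9, 14.2 and 10.8 CPM in the control tumors, without overlap (log2 fold change -1.69, standard error 0.43, adjusted p = 0.394). *Esr2*, the other estrogen receptor, was at 2.19 to 6.47 CPM in the test and 1.97 to 4.26 CPM in the control tumors. *Nr3c1*, the glucocorticoid receptor, was at 119, 80.6 and 91.3 CPM in the test tumors and 118, 81.3 and 106 CPM in the control tumors.
Coregulators and chaperones of the steroid receptors gave no call, with 19 of 19 tested and 0 at an adjusted p of 0.05 in edgeR's test. At an unadjusted p under 0.05 the same test gave 0, beside 8.41% of all tested genes. Their median log2 fold change was 0.04, beside 0.02. *Fkbp5*, a chaperone gene induced by glucocorticoids and progestins, reached 493 CPM in test replicate 1, while the 5 other tumors had 46.8 to 106 CPM, so that test replicate 1 stood apart here as it did for *Pgr*. *Ncoa7* had the next largest log2 fold change of the list, at 0.67.

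On the scale per length the regulators spanned a wide range of levels. Mean FPKM over the 6 tumors was 192 for *Elf5*, 146 for *Ehf*, 77.3 for *Gata3*, 75.1 for *Tfap2c*, 23.2 for *Prlr*, 14.5 for *Elf3*, 7.27 for *Spdef*, 1.71 for *Foxa1*, 1.17 for *Esr1* and 0.40 for *Pgr*. *Tfap2c* exceeded *Prlr*, and *Prlr* exceeded *Elf3*, in 6 of 6 tumors. The order of all other neighbors changed between tumors. *Ehf* over *Gata3* and *Gata3* over *Tfap2c* held in 4 tumors each, *Foxa1* over *Esr1* in 3, and the 4 remaining orders in 5. Of all listed genes by mean FPKM, *Elf5* ranked 336, *Gata3* 1005 and *Pgr* 14277. Genes with levels nearest to those of *Ehf* over the 6 tumors were *Kif21a*, a kinesin, *Bcl2l14* and *Cldn4*, an epithelial tight junction claudin, at root mean square differences of 0.12, 0.18 and 0.24, and those nearest to *Elf5* were *Klhl23*, *Trim2* and *Prss8*, the last a protease of epithelial membranes, at 0.15, 0.18 and 0.19.

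Markers of other cells in the tumors were counted in the same edgeR fit, and none of them passed an adjusted p of 0.05. At an unadjusted p under 0.05, 0 of the 3 tested T cell, 0 of 8 fibroblast, 0 of 6 endothelial and 0 of 2 tested epidermal markers were called. Lower in test tumors were 1 of 9 basal and 1 of 7 leukocyte markers, beside 5.26% of all tested genes. Higher in test tumors were 2 of 2 tested adipocyte and 3 of 10 skeletal muscle markers, beside 3.15% of all tested genes. Basal and myoepithelial markers summed to 549 to 1498 CPM in test and 556 to 3736 CPM in control tumors, and epidermal markers to 14.9 to 34.9 CPM and 5.43 to 19.5 CPM. Leukocyte markers summed to 254 to 498 CPM in test and 379 to 747 CPM in control tumors, fibroblast markers to 1191 to 5123 CPM and 1030 to 3038 CPM, and endothelial markers to 109 to 139 CPM and 93.9 to 135 CPM.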

How the data were processed

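Total RNA from 6 breast tumors, 3 test and 3 control by the labels, was sequenced at BGI on an Illumina HiSeq. Reads were aligned to mm10 with Bowtie, and the submitters' processing notes also name BWA and RSEM. The authors deposited per tumor and gene an expected count, without normalization, an FPKM, and the length in bases that its calculation used. The annotation release is not given in the sources used here. Genes not listed in a tumor were set to a count of 0. Of 18460 NCBI Gene identifiers, 18400 matched RefSeq on GRCm38.p6 by identifier, 13 by transcript, and 47 did not match.

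After rounding to whole numbers the expected counts were fitted with edgeR 4.0.16 under R 4.3.3 (filterByExpr, TMM, quasi-likelihood test without covariates, Benjamini-Hochberg adjustment over 13706 genes), and the standard error is the log2 fold change divided by the square root of F. Depth was 8373390 to 9449565 expected counts per tumor. Intervals rest on the spread between tumors as the model estimates it from 3 tumors per group. They do not show how a value changes when a tumor is left out. Exact permutation tests used log2(CPM + 0.5). DESeq2 1.42.0, limma 3.58.1, RLE scaling, other filters, a replicate block, a pooled Poisson test, each tumor left out and an epithelial covariate were the alternatives. The paper names the Poisson method, NOISeq or EBSeq for differential expression. The fit was tested on simulated data. The regulators and the gene lists were chosen with earlier results of these data known, and the lists were written by hand. Named genes are the 10 regulators and the 3 nearest genes of up to 4 regulators. In each other list the genes at an unadjusted p under 0.05 in edgeR's test and the 2 largest absolute log2 fold changes were named. Cell type markers were given as whole lists with examples, so not all of those under that p are named. *Stat5a*, *Tfap2a*, *Tfap2b*, *Xbp1*, *Grhl1*, *Grhl2*, *Greb1*, *Areg*, *Tnfsf11*, *Calca*, *Esr2* and *Nr3c1* were named after their values were seen. A relative of the regulators that the rule would name is not reported here.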

Additional observations from a re-analysis of the deposited data

How the results depend on the processing

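Of the 145 refits of the regulators' log2 fold changes, 126 kept their direction and their side of an adjusted p of 0.05, and 9 reversed. With the epithelial covariate the reversed values were 1.15 for *Esr1*, -0.32 for *Elf5*, -1.06 for *Ehf*, -0.86 for *Elf3* and 0.72 for *Tfap2c*. The values of this covariate did not overlap between the groups, so these signs are poorly determined. With each tumor left out in turn the values ran from -1.80 to 0.08 for *Esr1* (0.078 without test replicate 2), -0.79 to 2.12 for *Pgr*, -0.02 to 0.21 for *Gata3* (-0.015 without test replicate 2) and -0.84 to 3.64 for *Foxa1*, and *Pgr* and *Foxa1* were below 0 without test replicate 1. The number of regulators called at an adjusted p of 0.05 was 0 under every alternative except the pooled Poisson test, which ignores the spread between tumors and called all 10, also at an unadjusted p. At an unadjusted p under 0.05 the count of 1 became 0 with the epithelial covariate and 0 to 5 with a tumor left out, and it became 0 with the replicate block. Regulators without overlap numbered 0 to 6 with a tumor left out, and 1 relative to the epithelial markers, *Elf3*. Over all genes DESeq2 called 313, limma-trend on log2(FPKM + 1) called 1, the pooled Poisson test called 9608, and 0 to 150 were called with a tumor left out. The replicate numbers are shared by the groups but the tumors came from different mice, and the deviations of tumors with the same number correlated at -0.02, 0.12 and -0.14 for replicates 1, 2 and 3, so the numbers were not taken as pairs. The filter of 10 counts in every tumor left out *Esr1*, *Pgr* and *Foxa1*, and the FPKM filter left out *Pgr*. Of the regulators, *Esr1*, *Pgr*, *Foxa1* and *Spdef* varied most in log2 level, with standard deviations of 1.15, 1.33, 1.97 and 1.63 over the tumors. Their lowest counts in a tumor were 6, 3, 2 and 15. No group was large enough for a test of outlying tumors, and the cause of these differences between alternatives was not tested.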
